A study of Caenorhabditis elegans with 4 samples.

Results

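The genes described here are 9 molting regulators and apical matrix genes of the nematode Caenorhabditis elegans: nhr-23, mlt-11, bli-5, mlt-7, mlt-8, mlt-10, noah-1, noah-2 and fbn-1. They were chosen by name, as genes known for the molt, from 41614 genes with a value, and all 9 were found. The choice was made with earlier results of these data known. RNA-seq measured whole animals of 2 genotypes, wild type and animals carrying the dve-1 allele uf171, with 2 libraries per genotype and 4 in all. Both genotypes were grown at the same temperature on plates seeded with E. coli OP50. By sample names and stage label these were L4 larvae, the last stage before the adult, and the series title says early L4, while the protocols mention L1 larvae, so L4 is used here as the labels have it. The labels name no transgene, no tissue-specific driver and no treatment, and they do not say what kind of lesion uf171 is. Nor do they say whether replicates are separate cultures, and the p-values thus rest on a spread between libraries that may be technical in origin.

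A nematode larva replaces its cuticle at the end of each larval stage. The epidermis lays down a temporary precuticle matrix, secretes the new cuticle beneath the old one, and then loosens and sheds the old cuticle with secreted proteases whose activity is held in check by inhibitors. Much of this program is transcribed in waves that recur with each molt, under transcription factors such as NHR-23, so the level of a molting gene in a larva depends on how far it is from the molt. DVE-1, a protein with a homeodomain, is known for its part in the response to misfolded proteins in mitochondria.

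Values are FPKM, which divide the fragments of a transcript by its length and by the depth of the library, so levels can be compared between genes. The depth behind them was estimated from the steps between low values as about 14040000 to 15300000 fragments per library. dve-1 itself gave 14.2 and 13.9 in wild type against 22.98 and 21.1 FPKM in the mutant, which cannot check the labels, since the kind of lesion is not given. In whole animals, fewer cells of a type and less RNA per cell cannot be told apart.

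mlt-7 was the single gene of the 9 whose libraries separated by genotype. It read 14.8 and 13.5 FPKM in the wild type libraries, replicates 1 and 2 in that order, and 32.2 and 31.5 FPKM in those of the dve-1 mutant. The genotypes overlapped for the other 8 genes. nhr-23, mlt-11, noah-1, noah-2 and fbn-1 had their 2 highest values in wild type replicate 2 and mutant replicate 1, whereas bli-5, mlt-8 and mlt-10 had theirs in wild type replicate 1 and mutant replicate 2. Of all genes tested, 18.4% had the first order and 34.0% the second. Either order by itself makes the difference between replicates, averaged over the genotypes, larger than the difference between genotypes, as it was for all 8. Changes were tested with limma on log2(FPKM + 1), adjusted by Benjamini-Hochberg over all 14664 genes tested, and 0 of the 9 passed the threshold of 0.05. Of the 9, mlt-7 alone had an unadjusted p under 0.05. Among all genes tested, 0.130% passed the threshold and 4.60% lay under the unadjusted p.

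**Figure D1:**
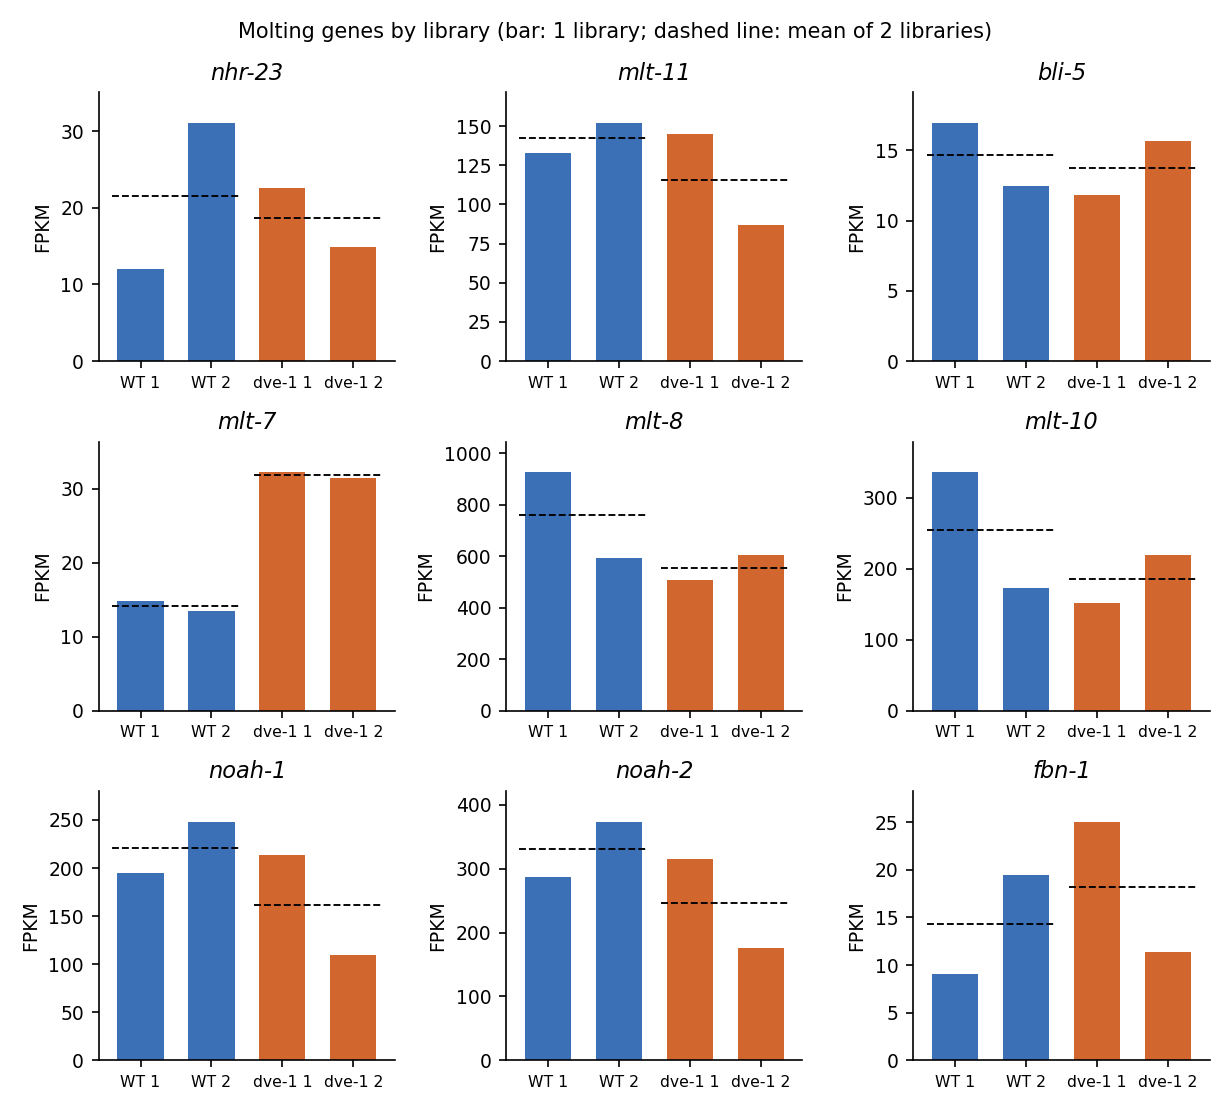
FPKM of the 9 genes in each library, with 1 bar per library (blue, wild type; orange, dve-1 mutant) and a dashed line at the mean of the 2 libraries of a genotype; each panel has its own axis from 0. Both mutant bars of mlt-7 stand above both wild type bars, at 31.5 to 32.2 against 13.5 to 14.8 FPKM, and in every other panel the genotypes overlap.

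The level of the genes fell into an upper and a lower set. mlt-8 ranked first in every library, at 507 to 926 FPKM, above the range of every other member. Below it came noah-2 at 176 to 373, mlt-10 at 152 to 336, noah-1 at 110 to 248 and mlt-11 at 86.6 to 152 FPKM, and the ranges of neighbours in that order overlapped. Within single libraries noah-1 was nevertheless above mlt-11 in 4 of 4, while noah-2 and mlt-10 changed places, with noah-2 above mlt-10 in 2 of 4. The lower set was mlt-7 at 13.5 to 32.2, nhr-23 at 12.1 to 31.1, fbn-1 at 9.09 to 25.0 and bli-5 at 11.8 to 16.9 FPKM, with overlapping ranges throughout. mlt-11 was above mlt-7 in 4 of 4 libraries, with no overlap of their ranges. Among the lower set, mlt-7 ranked first in both mutant libraries, whereas bli-5 ranked first in wild type replicate 1 and nhr-23 in wild type replicate 2.

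The regulator was considered first. nhr-23 encodes a nuclear hormone receptor that activates transcription of many molting genes (C01H6.5; chromosome I, 7214745 to 7221299, plus strand, WBcel235). Wild type gave 12.1 and 31.1 FPKM and the mutant 22.6 and 14.8 FPKM. The wild type libraries were thus the lowest and the highest of the 4, with replicate 2 at 2.57 times replicate 1, and both mutant libraries lay between them. The means were 21.6 ± 13.4 FPKM (SD, n = 2) and 18.7 ± 5.48 FPKM (SD, n = 2), and the log2 fold change was -0.08 (95% interval -1.61 to 1.44, limma adjusted p = 0.9995). That interval leaves room for a large change in either direction. Its sign turned with the library left out, to 0.56 without wild type replicate 2 and to 0.20 if mutant replicate 2 was left out. By its name nhr-23 also belongs to the nuclear hormone receptor family, where these same values apply.

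The split of nhr-23 among its annotated transcripts was unstable. The table holds 4 of its 6 annotated RefSeq transcripts. A single transcript carried all of the value in wild type replicate 1 and in mutant replicate 2, 12.1 and 14.8 FPKM, but it carried 18.9% in wild type replicate 2 and 45.1% in mutant replicate 1. In wild type replicate 2 the rest lay on 2 transcripts that were listed at 0 in every other library, at 17.03 and 8.18 FPKM, and in mutant replicate 1 on another, at 12.4 FPKM. An exact 0 in such estimates can be a failed assignment. On the transcript present in all 4 libraries the values were 12.1 and 5.86 in wild type against 10.2 and 14.8 FPKM in the mutant, so the order of the libraries differed from that of the sum (log2 fold change 0.49, limma adjusted p = 0.9999 over 20088 transcripts). Wild type replicate 2, highest in the sum, was lowest on this transcript.

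The protease inhibitors came next. mlt-11 encodes a secreted protein with Kunitz-type protease inhibitor domains that is needed for normal molting (W01F3.3; chromosome V, 20667205 to 20678537, plus strand). Wild type gave 133 and 152 FPKM and the mutant 145 and 86.6 FPKM. Mutant replicate 2 stood apart as the lowest, and mutant replicate 1 lay between both wild type libraries. The log2 fold change came to -0.34 (SE 0.30, limma adjusted p = 0.9995), and it was 0.03 without mutant replicate 2. Its 8 annotated transcripts were all in the table, and 3 had values above 0. In contrast to nhr-23, their shares were steady: the leading transcript held 58.8% to 62.3% of the gene's FPKM in the 4 libraries, the next 20.9% to 23.8% and the last of them 16.4% to 18.4%. All 3 were lowest in mutant replicate 2.

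bli-5 encodes a Kunitz-type inhibitor-like protein whose loss blisters the cuticle (F45G2.5; chromosome III, 13427640 to 13429768, minus strand). Wild type gave 16.9 and 12.4 FPKM and the mutant 11.8 and 15.6 FPKM, the smallest spread after mlt-7 within genotypes. Its short transcript of 747 nucleotides rested on about 126 to 189 fragments per library, with a counting error of 7.27% to 8.91%. Wild type replicate 1 was 1.36 times replicate 2, and mutant replicate 2 was 1.33 times replicate 1, against a ratio of the mutant to the wild type mean of 0.934. The log2 fold change of bli-5 came to -0.09 (SE 0.27, limma adjusted p = 0.9995), and it turned to 0.12 without wild type replicate 1 and to 0.10 without mutant replicate 1. Its end overlaps that of cope-1 on the other strand by 82 bases. cope-1 read 129 to 164 FPKM, and the strand setting of the libraries is not given in the sources used here, so fragments in that stretch cannot be divided between the genes.

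mlt-7 encodes a heme peroxidase of the epidermis that works with a dual oxidase in cross-linking the cuticle (ZK430.8; chromosome II, 4393007 to 4404850, plus strand). Both mutant libraries lay above both wild type libraries, and the libraries within a genotype were close, at 1.10 times each other in wild type and 1.02 times in the mutant. The means were 14.1 ± 0.952 FPKM (SD, n = 2) in wild type and 31.8 ± 0.490 FPKM (SD, n = 2) in the mutant, a ratio of 2.25. The log2 fold change was 1.12 (SE 0.17, 95% interval 0.63 to 1.61), with an unadjusted p of 0.00351 that became 0.320 after adjustment over all genes tested (limma), so it did not pass. Its p ranked 160 from the smallest among all genes tested and 34 among the protein-coding genes. Groups that do not overlap are common with 2 libraries against 2: this held for 28.1% of all genes tested and for 11.9% in the direction higher in the mutant, against 1 of the 9 here.

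The depth behind mlt-7 was ample. With 1 transcript of 2515 nucleotides in 9 exons, its values correspond to about 557 and 518 fragments in wild type and 1157 and 1112 in the mutant, with counting errors of 2.94% to 4.39%, which cover counting only. No other annotated gene overlaps it. Of the 11 transcripts of these genes that could be tested singly, 0 passed, and 1, that of mlt-7, had an unadjusted p under 0.05 (limma over 20088 transcripts), where 0.0498% and 4.99% of all transcripts did. The log2 fold change of mlt-7 stayed between 1.05 and 1.18 in all 14 alternative fits, 4 of which leave out 1 library, and the adjusted p ran from 0.272 to 1.00 without passing in any. Tested among protein-coding genes alone, its adjusted p was 0.879 (limma). The difference between replicates was smaller than that of mlt-7 for 7.25% of the protein-coding genes of at least 5 FPKM.

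**Figure D2:**
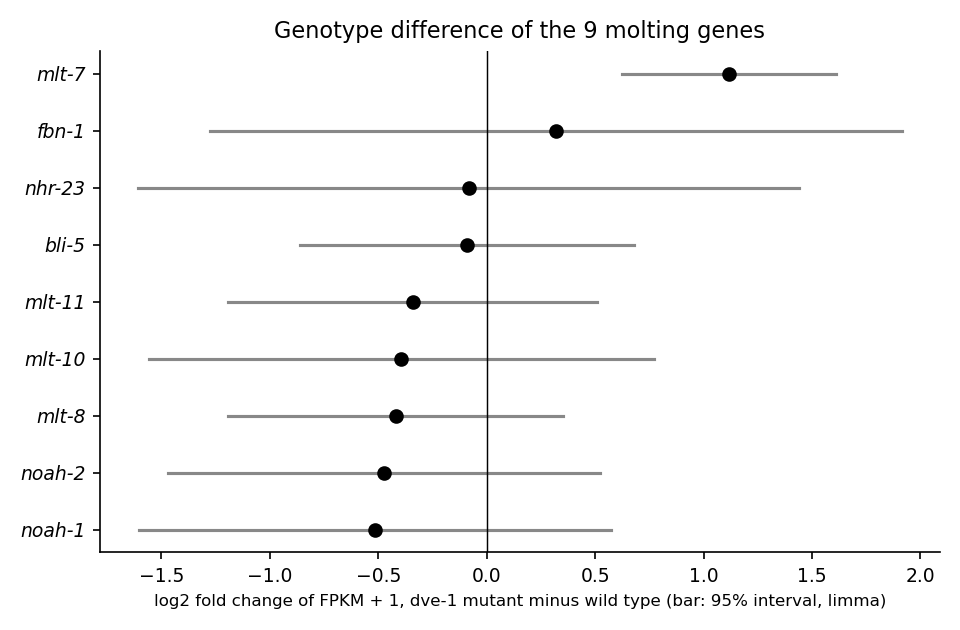
Log2 fold change of each of the 9 genes (point, mutant minus wild type, log2(FPKM + 1) scale) with its 95% interval from limma (bar). The interval of mlt-7, 0.63 to 1.61, lies above 0 before adjustment, and the intervals of the other 8 genes include 0.

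The genes with the profile most like that of mlt-7 over the 4 libraries were taken by the smallest distance between centred log2(FPKM + 1) values among 10959 protein-coding genes of at least 5 FPKM. They were lagr-1, a gene of ceramide synthesis, at 5.55, 4.79, 12.5 and 13.1 FPKM (wild type 1 and 2, then mutant 1 and 2), Y105C5A.1272 at 71.0, 60.5, 129 and 142 FPKM, and K02E2.6 at 98.7, 80.9, 200 and 174 FPKM. Each was higher in both mutant libraries, which follows from how they were picked, and 3 genes in all lay within a distance of less than 2 times the nearest. Of 6 other genes of cuticle cross-linking, 2, doxa-1 and skpo-3, were also higher in both mutant libraries with no overlap, where 11.9% of all genes were. In size or in the order of libraries, these genes differed from mlt-7. bli-3, the dual oxidase, gave 12.4 and 11.6 in wild type against 12.7 and 11.9 FPKM in mutant animals (log2 fold change 0.04), doxa-1, its maturation factor, 6.28 and 4.30 against 9.71 and 6.97 FPKM (log2 fold change 0.57), and skpo-3, a peroxidase, 5.40 and 12.8 against 30.1 and 21.1 FPKM (log2 fold change 1.48, limma adjusted p = 0.970). The peroxidase gene skpo-2 ran the other way by value, at 25.2 and 18.9 against 15.1 and 19.7 FPKM. Of the 6 genes in that list 5 were higher by sign and 0 passed (1 at an unadjusted p under 0.05); the median log2 fold change was 0.30 against -0.02 over all genes tested. That median was 0.09 with 1 FPKM required in all 4 libraries, which left out skpo-1, and 0.18 or 0.20 without mutant replicate 1 or 2.

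noah-1 and noah-2 encode zona pellucida domain proteins of the apical extracellular matrix of the epidermis. noah-1 (C34G6.6; chromosome I, 5874416 to 5878958, minus strand) gave 194 and 248 in wild type against 214 and 110 FPKM in the mutant. noah-2 (F52B11.3; chromosome IV, 14091254 to 14096615, plus strand) gave 288 and 373 in wild type against 316 and 176 FPKM in the mutant. Both put the libraries in the same order as mlt-11, with wild type replicate 2 highest, mutant replicate 1 next, wild type replicate 1 after it and mutant replicate 2 lowest. Mutant replicate 1 was 1.94 times mutant replicate 2 for noah-1 and 1.80 times for noah-2. The log2 fold changes were -0.52 (SE 0.39) and -0.47 (SE 0.35), each with a limma adjusted p of 0.9995. Without mutant replicate 2 they were -0.04 and -0.05, and without mutant replicate 1 they were -0.99 and -0.90. The sign did not turn, but the size of both rested on mutant replicate 2.

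Although the levels of noah-1 and noah-2 each moved by more than 2-fold over the libraries, the ratio between them stayed within a narrow range. noah-2 stood at 1.48, 1.51, 1.48 and 1.60 times noah-1 in wild type 1 and 2 and mutant 1 and 2. The ratio of noah-1 to mlt-11 was 1.46, 1.63, 1.48 and 1.27 in the same order, with its lowest value in mutant replicate 2. noah-1 carried its whole value on 1 of 3 annotated transcripts, and noah-2 has 1 transcript, of 2566 nucleotides, that rested on about 6332 to 14654 fragments. The counting error of noah-2 was 0.826% to 1.26%, well below the differences between its replicates.

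fbn-1 encodes a fibrillin-related matrix protein with a zona pellucida domain, also of the apical matrix of the epidermis (ZK783.1; chromosome III, 7625386 to 7641078, plus strand). Wild type gave 9.09 and 19.4 FPKM and the mutant 25.0 and 11.3 FPKM. Mutant replicate 1 was highest and wild type replicate 1 lowest, and replicates differed by 2.14 times in wild type and by 2.21 times in the mutant. Of the 9 genes it had the widest range over the 4 libraries, 1.37 on the log2(FPKM + 1) scale. Its log2 fold change of 0.32 (SE 0.56, limma adjusted p = 0.9995) turned to -0.19 without wild type replicate 1 and to -0.22 without mutant replicate 1. Of 9 annotated transcripts 3 had values above 0. The leading one gave 9.09 and 10.1 in wild type against 25.0 and 6.59 FPKM in the mutant, so the wild type replicates were close on it and their difference in the sum lay on another transcript, listed at 0 in the other libraries and at 9.39 FPKM in wild type replicate 2. In mutant replicate 2, 41.9% of the value lay on yet another transcript that was listed at 0 elsewhere.

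**Figure D3:**
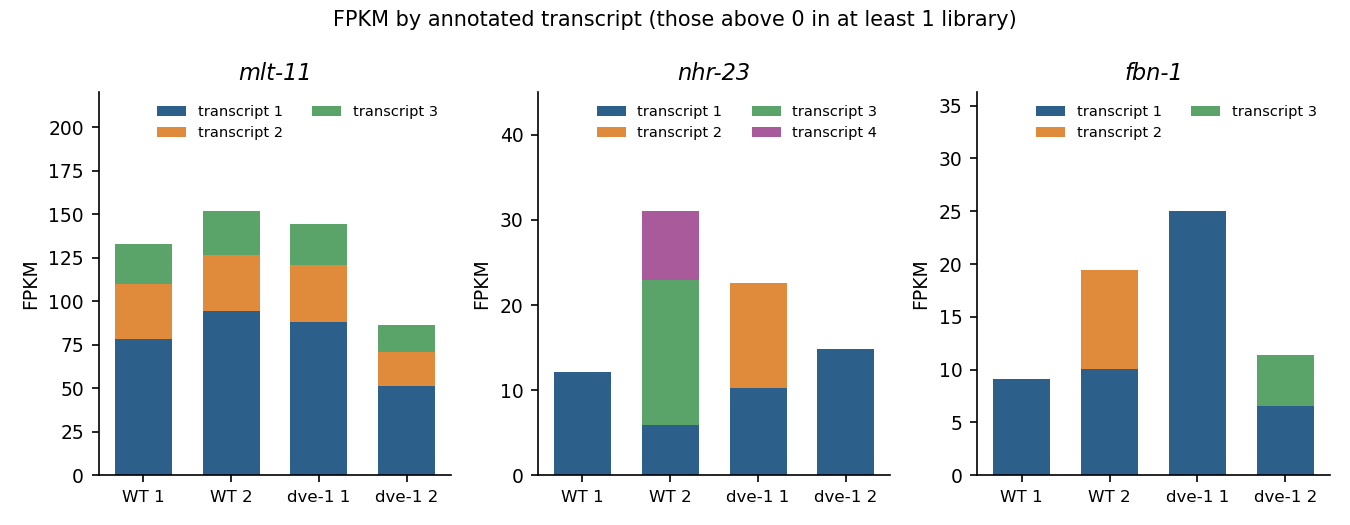
FPKM by annotated transcript for mlt-11, nhr-23 and fbn-1, stacked to the gene's sum in each library (transcripts numbered within each gene; those at 0 in all libraries are not drawn). The leading transcript of mlt-11 holds 58.8% to 62.3% in every library, whereas nhr-23 and fbn-1 have transcripts that appear in 1 library only.

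The profile of fbn-1 was shared most closely by cutl-3, a cuticlin-like gene, at 4.23, 9.68, 12.7 and 5.41 FPKM (wild type 1 and 2, then mutant 1 and 2), by B0222.5 at 6.86, 14.8, 19.6 and 8.93 FPKM, and by fipr-2 at 527, 1035, 1334 and 605 FPKM. These 3 had the smallest distances to fbn-1 of the 10959 genes searched, at 0.0185, 0.0442 and 0.0657. For nhr-23 the nearest were F01D5.3, nhr-19 and adh-1, at larger distances of 0.165 to 0.210, with 29 genes within less than 2 times the nearest. nhr-19, another nuclear hormone receptor gene, read 8.06 and 18.4 against 12.7 and 8.78 FPKM.

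mlt-8 and mlt-10 are both needed to complete the molt, and mlt-10 is known for expression that rises before each molt. mlt-8 (W08F4.6; chromosome II, 569280 to 572110, minus strand) gave 926 and 592 in wild type against 507 and 604 FPKM in the mutant. Wild type replicate 1 stood well above the other libraries, and wild type replicate 2 and mutant replicate 2 were nearly equal. mlt-10 (C09E8.3; chromosome II, 546705 to 552032, plus strand) gave 336 and 172 in wild type against 152 and 220 FPKM in the mutant. Wild type replicate 1 was again highest, at 1.95 times replicate 2, with mutant replicate 2 next and mutant replicate 1 lowest. The order of the libraries was the same for mlt-8, mlt-10 and bli-5.

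The log2 fold changes of mlt-8 and mlt-10 were -0.42 (SE 0.27) and -0.39 (SE 0.41), each with a limma adjusted p of 0.9995. Both rested on wild type replicate 1: without it they were -0.10 and 0.09, so that of mlt-10 turned. The genotypes of mlt-8 overlapped by a narrow margin, 592 in wild type replicate 2 against 604 FPKM in mutant replicate 2, and did not overlap once the libraries were median-centred. Depth was no limit, with about 8021 to 15294 fragments for mlt-8 and 5096 to 11735 for mlt-10. mlt-8 was 2.76, 3.44, 3.33 and 2.75 times mlt-10 in wild type 1 and 2 and mutant 1 and 2.

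The genes are neighbours, with 17247 bases between them and 2 protein-coding genes lying wholly in that stretch. Those did not follow their order: C09E8.1 gave 25.1 and 27.99 in wild type against 30.3 and 21.6 FPKM in the mutant, and W08F4.5 read 2.55 and 2.68 against 3.97 and 2.69 FPKM. lips-7, a lipase-related gene, overlaps mlt-10 by 179 bases on the same strand. It read 21.6 and 12.0 against 11.1 and 31.2 FPKM, high in the same libraries as mlt-10 but with mutant replicate 2 first. Fragments in the shared stretch cannot be divided between these genes, and their part in this order was not tested. T27A1.3, which overlaps mlt-10 by 240 bases at its other end, was listed at 0 in every library.

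**Figure D4:**
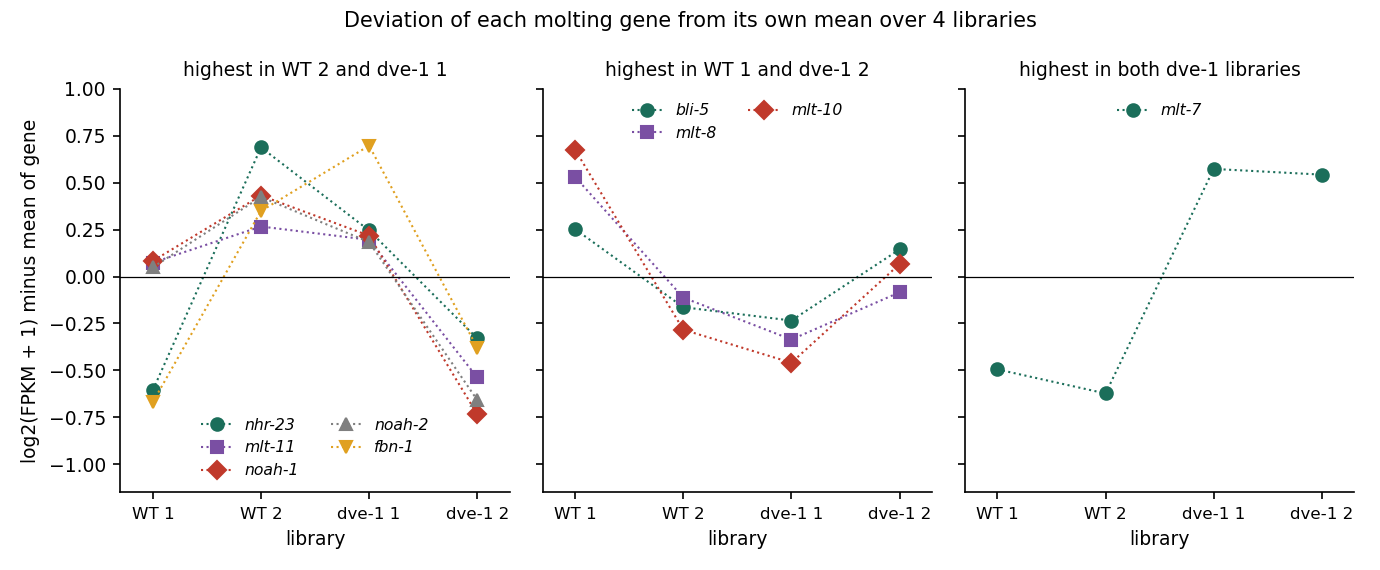
Deviation of each gene from its own mean of log2(FPKM + 1) over the 4 libraries (points joined by dotted lines for each gene; libraries on the horizontal axis in no order of time). In the left panel 5 genes have both top values in wild type replicate 2 and mutant replicate 1, in the middle panel 3 genes have theirs in wild type replicate 1 and mutant replicate 2, and on the right mlt-7 is higher in both mutant libraries.

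Together, 5 of the 9 genes had both top values in wild type replicate 2 and mutant replicate 1, where 18.4% of all genes tested did, and 3 of 9 had the opposite order, where 34.0% of all genes did. The replicate numbers thus pointed in opposite directions in the genotypes for 8 of 9. The difference between replicates, averaged over the genotypes, had a median of 0.61 on the log2 scale for the 9 genes and of 0.30 for 10960 protein-coding genes of at least 5 FPKM. It was above that of the typical coding gene for 8 of 9. The difference between genotypes also had a larger median size, 0.39 against 0.16. By sign 7 of 9 were lower in the mutant, with a median log2 fold change of -0.34, where 53.8% of all genes were lower with a median of -0.02. These shares describe the 4 libraries, and nothing here is a test of the 9 genes as a set.

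Some lists of other markers held these library orders. All 8 oocyte markers, such as oma-2, puf-5 and perm-2, had both top values in wild type replicate 1 and mutant replicate 2, where 34.0% of all genes did. So did 3 of 7 sperm markers. The summed level of the oocyte markers was 264 and 184 in wild type against 158 and 623 FPKM in the mutant. For 5 of 7 body wall muscle markers and 4 of 7 neuron markers the top libraries were wild type replicate 2 and mutant replicate 1, where 18.4% of all genes had them. The same held for 2 of 10 epidermis and 3 of 10 intestine markers. Muscle markers summed to 5405 and 5942 in wild type against 5205 and 4551 FPKM in the mutant, so their sum did not follow that order. Of that sum lev-11 alone gave 3024 and 2885 against 2345 and 2143 FPKM. Neuron markers summed to 300 and 352 against 323 and 287 FPKM. Sperm markers summed to 621 and 425 FPKM against 281 and 493 FPKM, with 6 of 7 lower by sign in the mutant. col-19, a collagen known for adult cuticle, gave 14.2 and 35.96 in wild type against 8.51 and 397 FPKM in the mutant, highest in mutant replicate 2. No marker in these lists was at 0 in every library. The part of cell makeup and of age within the larval stage in the results above was not tested.

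Molting takes place in the epidermis, and its markers were present in every library. Their summed level was 4824 and 4249 in wild type against 3519 and 3646 FPKM in the mutant. The larger part of that sum was sqt-3 in every library, so it mostly follows 1 collagen gene. By sign 8 of 10 were lower in the mutant, 6 of them with no overlap between genotypes, where 16.2% of all genes did so in that direction. The markers are not separate from the lists below: dpy-7 is also a furrow collagen there, and che-14 is among the sterol and hedgehog-related genes. lin-26, an epidermal fate regulator, read 92.8 and 62.2 against 50.8 and 49.5 FPKM, and sqt-3, a cuticle collagen, 3505 and 2630 against 2066 and 2256 FPKM. The 2 markers higher by sign were col-19, given above, and grd-10, at 132 and 339 against 495 and 194 FPKM. With limma 0 of the 10 passed (0 at an unadjusted p under 0.05). Intestine markers summed to 4842 and 6160 in wild type against 6852 and 6733 FPKM in the mutant. Of that sum asp-1 alone gave 2576 and 3467 against 3242 and 3615 FPKM, and its genotypes overlapped. By sign 10 of 10 intestine markers were higher, 6 of them with no overlap, where 11.9% of all genes did so in that direction. mlt-7 was thus higher in the libraries where the epidermis markers were lower in sum and the intestine markers higher. The part of cell makeup in that difference was not tested.

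Around the 9 genes, 74 further genes of the molt and the cuticle were listed by role. Of these, 65 could be tested, with 20 higher and 45 lower by sign and a median of -0.25 on the log2 scale. The 20 higher genes and that median include myrf-2. Of these 65, myrf-2 met the filter of at least 1 FPKM in 2 libraries through the mutant libraries alone, as did 330 of all genes through those of either genotype, and such genes are left out of the next counts. With limma 0 of the 64 others passed, the smallest adjusted p being 0.716, and 7 had an unadjusted p under 0.05 where 3.18% of the 14334 remaining genes did. The genotypes did not overlap for 31 of the 64, 48.4%, against 26.5% of those genes. With myrf-2 and its like included, these counts were 8 and 32 of 65 (49.2%), against 4.60% and 28.1% of all genes tested. The lists, like the 9 genes, were chosen with earlier results of these data known, and the counts are a description.

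**Figure D5:**
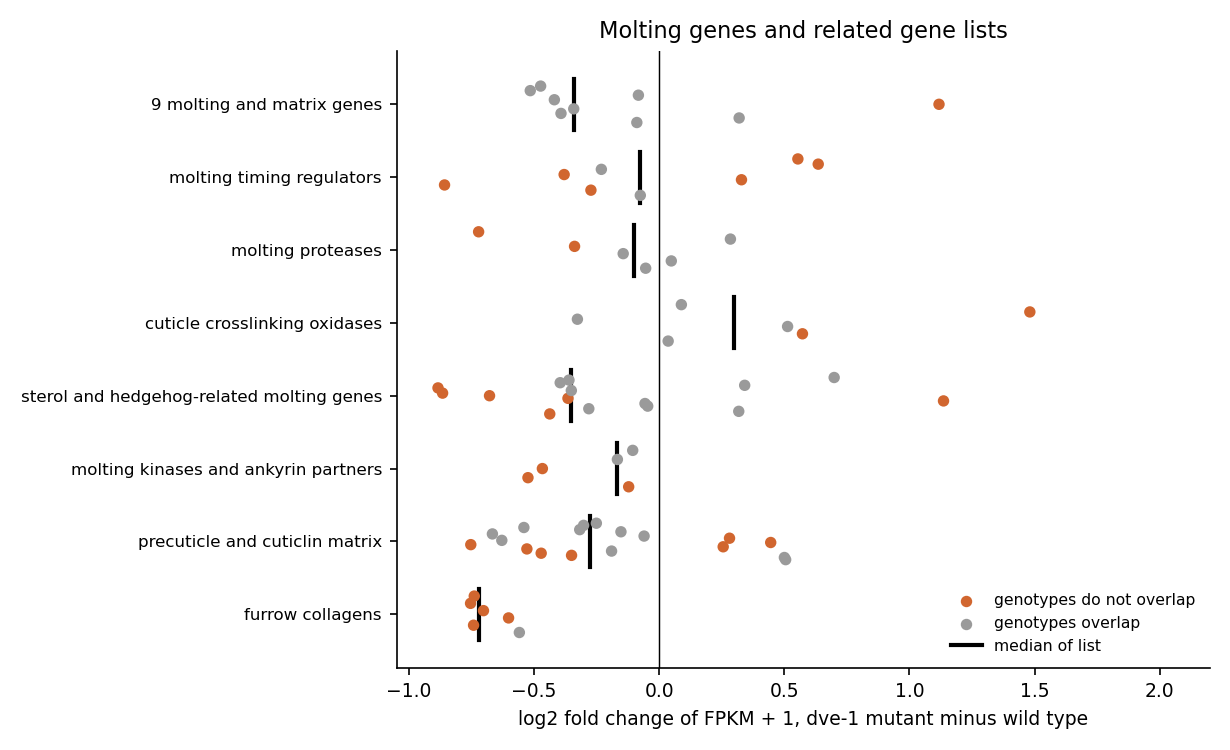
Log2 fold change (dve-1 mutant minus wild type, log2(FPKM + 1) scale) of each tested gene by list, spread vertically for legibility, with the list's median as a vertical bar; orange marks genes whose genotypes do not overlap. The point of myrf-2 is left out because both wild type libraries list it at 0, but the median bar of its list, the timing regulators, counts it. The furrow collagens sit at the left with a median of -0.72.

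Among the regulators of timing, 4 of 9 were higher and 5 lower by sign, with a median of -0.08. Both the 4 higher genes and that median include myrf-2, described below. lin-42, the Period-related clock gene, gave 1415 and 1107 in wild type against 949 and 975 FPKM in mutant animals (log2 fold change -0.38), and grh-1, the Grainyhead factor, 36.1 and 52.8 against 26.8 and 20.8 FPKM (log2 fold change -0.86, limma adjusted p = 0.985). nhr-25, another nuclear hormone receptor of the molt, read 5.04 and 4.19 against 10.2 and 5.76 FPKM. myrf-2 stood at a listed 0 in wild type replicates 1 and 2 and read 3.34 and 6.13 FPKM in the mutant. It met the filter on low values through the mutant libraries alone, so neither a fold nor a p is given. The related factor gene myrf-1 read 61.4 and 81.1 against 80.7 and 44.5 FPKM, with the same top libraries as noah-1. The median of this list turned to 0.27 without wild type replicate 1, to 0.27 without mutant replicate 1 and to 0.19 without mutant replicate 2, and it was -0.15 with 1 FPKM required in all 4 libraries, which left out myrf-2.

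The proteases of the molt varied in direction, with 4 of 6 lower by sign and a median of -0.10, which turned to 0.10 without mutant replicate 1. nas-37, an astacin protease that opens the old cuticle, gave 78.6 and 74.5 in wild type against 53.6 and 39.4 FPKM in mutant animals (log2 fold change -0.72, limma adjusted p = 0.877). dpy-31, a protease that processes collagens, read 46.7 and 57.3 against 46.4 and 35.7 FPKM, and nas-36, a relative of nas-37, 13.02 and 11.3 against 11.3 and 19.9 FPKM. nas-38 was not analysed here.

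Hedgehog-related and sterol-sensing genes were mostly lower by sign, 11 of 15, and their median was -0.35, which was 0.00369 without wild type replicate 1, -0.02 without mutant replicate 1 and -0.57 without wild type replicate 2. wrt-1 gave 204 and 166 in wild type against 120 and 84.6 FPKM in mutant animals (log2 fold change -0.87), while ptr-23, a patched-related gene, read 10.1 and 10.2 against 18.9 and 29.3 FPKM (log2 fold change 1.14, limma adjusted p = 0.716). In this list 8 of 15 genes, among them wrt-4, wrt-6 and ptr-18, had the same top libraries as mlt-10, where 34.0% of all genes did. All 5 kinases and ankyrin partners were lower by sign, with a median of -0.17, which was -0.43 without wild type replicate 2, -0.29 without mutant replicate 2 and -0.10 without wild type replicate 1. mlt-3 read 57.7 and 37.8 against 33.7 and 30.7 FPKM and mlt-4 13.8 and 14.5 against 11.4 and 8.67 FPKM.

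The matrix genes nearest in kind to noah-1, noah-2 and fbn-1 held both library orders. Among those tested, 6 of 18 were highest in the same libraries as noah-1, where 18.4% of all genes were. In the opposite libraries 4 of 18 were highest, where 34.0% of all genes were. Of these 18 precuticle and cuticlin genes, 13 were lower by sign with a median of -0.28, which was 0.02 without wild type replicate 2 and -0.05 if mutant replicate 2 was left out. The precuticle genes let-653, lpr-1, lpr-3, let-4 and sym-1, and cutl-16, had their top values in wild type replicate 2 and mutant replicate 1. lpr-3, a lipocalin, gave 359 and 531 in wild type against 423 and 213 FPKM in the mutant, and let-653 read 25.4 and 51.6 against 46.8 and 22.5 FPKM. The cuticlin gene cut-2 had the opposite order, at 1043 and 659 against 996 and 1390 FPKM. cutl-28, a cuticlin-like gene, separated by genotype with 19.2 and 16.9 against 10.5 and 10.1 FPKM (log2 fold change -0.75, limma adjusted p = 0.750).

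The furrow collagens, which pattern the ridges of the cuticle, were lower by sign in 6 of 6 cases, with no overlap in 5 of them and a median log2 fold change of -0.72. Of all genes tested, 53.8% were lower by sign and 16.2% were lower with no overlap. dpy-7 gave 369 and 510 in wild type against 336 and 211 FPKM in the mutant, and dpy-8 read 459 and 626 against 380 and 265 FPKM (log2 fold change -0.75, limma adjusted p = 0.9995). dpy-10 was the member that overlapped, at 125 and 180 against 154 and 67.2 FPKM, with the same order of libraries as noah-1. Of these 6, 0 passed with limma (0 at an unadjusted p under 0.05), and the median was -0.34 without mutant replicate 2 and -0.40 if wild type replicate 2 was left out. Mutant replicate 2 had the lowest value in all 6, as it did for mlt-11, noah-1 and noah-2.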

How the data were processed

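The authors deposited 1 table of FPKM values per RefSeq transcript and library. Its header names no unit; FPKM was read from values that are not whole and from Cufflinks, named with TopHat2 and ce11 in the submitters' processing notes. For strandedness, versions and any scaling between libraries, nothing is given in the sources used here.

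Of 52491 accessions, 47645 (90.8%) matched a gene of RefSeq WBcel235, version ignored, and FPKM were summed per gene, giving 41614 genes. All 9 members passed the filter of at least 1 FPKM in at least 2 libraries. limma 3.58.1 (R 4.3.3, mean-variance trend, two-sided) compared genotypes on log2(FPKM + 1), which understates changes of low genes, and was tested on simulated data. Depth came from 1656 single-transcript genes with Ensembl release 115 lengths: low FPKM multiplied by length form steps worth 1 fragment, with 56.3% to 60.9% of low values within 0.1 of a whole number. Fragment numbers assume no other scaling. Tables were prepared with Python 3.11.15 and pandas 2.3.3. Members, lists, alternatives and the rule for named genes (all members, up to 3 genes per list by smallest p or largest separated fold change, and 3 nearest profiles for the 3 members of widest range) were chosen with earlier results of these data known. Other genes of a list, such as bli-3, myrf-1 and cut-2, and the markers named were picked after their values were seen.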

Additional observations from a re-analysis of the deposited data

How the results depend on the processing

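In 13 alternative settings and 1 chosen after seeing the data, 0 of the 9 genes passed. Leaving out 1 library turned the log2 fold change of bli-5 (to 0.12 with wild type replicate 1 left out and 0.10 with mutant replicate 1 left out, range -0.30 to 0.12), fbn-1 (-0.19 and -0.22, range -0.22 to 0.86), mlt-10 (0.087 without wild type replicate 1, range -0.87 to 0.087), nhr-23 (0.56 if wild type replicate 2 is left out and 0.20 without mutant replicate 2, range -0.73 to 0.56) and mlt-11 (0.025 without mutant replicate 2, range -0.71 to 0.025). The ranges were 1.05 to 1.18 for mlt-7, -0.74 to -0.10 for mlt-8, -0.99 to -0.04 for noah-1 and -0.90 to -0.05 for noah-2. No other alternative turned a sign, and those that changed only the filter, the trend or the blocking could not. Genes not overlapping were 2, mlt-7 and mlt-8, with median-centred values and with quantile normalization, which moved the median of all genes by 0.01 and 0.03.

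Without 1 library, medians ran from -0.034 to 0.27 for timing regulators, -0.17 to 0.10 for proteases, -0.57 to 0.00369 for sterol and hedgehog-related genes, -0.33 to 0.021 for precuticle and cuticlin genes, 0.18 to 0.39 for oxidases, -0.43 to -0.10 for kinases and -1.06 to -0.34 for furrow collagens. The protease median was -0.22 with the highest single transcript per gene. With 1 FPKM required in all 4 libraries the oxidase median was 0.088 and that of the timing regulators -0.15. The count of 32 other molting genes not overlapping was 31 with myrf-2 left out, a setting chosen after seeing the data. Over all genes, the 19 calls became 10 with a pseudocount of 0.1, 3 with no filter, 86 without the trend, and 0 with 1 FPKM required in all libraries, with protein-coding genes only and in every fit without 1 library. The cause was not tested.

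The labels give both genotypes replicates 1 and 2. The replicate block called 0 of the 9 genes and 0 of all genes. Each block holds 1 library of each genotype, so the fold changes could not differ from the main fit, and the same holds for the crossed pairing. Same-numbered libraries deviated in opposite directions (correlation -0.326 over 10960 coding genes), and the crossed pairing also called 0 of the 9 and 0 of all genes. Counting error limited bli-5 most.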
